A study of Danio rerio with 45 samples.

Results

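The arrays described here follow zebrafish embryos without Dnmt3aa from gastrulation to early segmentation. They are the 3 arrays titled dnmt3aa at the 5-somite stage and the 3 titled dnmt3aa at the shield stage, 6 of the 45 arrays of the series, chosen by title alone. Each array holds the RNA of 1 pool of 20 whole embryos, so no value belongs to a single embryo. The label gives the genotype as dnmt3aa-/-, and the study's methods describe these embryos as MZdnmt3aa, which lack both the product of the mother and that of their own genome. The mutant allele itself is not given in the sources used here. Embryos of the 2 other genotypes, labelled wild-type (WT) and dnmt3bb.2-/-, have 3 arrays at each of the same stages and serve as comparison.

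Dnmt3aa is a DNA methyltransferase of the Dnmt3a branch, the enzymes that place methyl groups on unmethylated CpG sites. At the shield stage a zebrafish embryo is in gastrulation, and the shield is its dorsal organizer, a source of Nodal signals and of inhibitors of BMP. By the 5-somite stage the germ layers are laid down, the first somites have formed, and the brain, the muscle, the notochord and the blood are being specified. The comparison asks which transcripts changed over that interval in embryos without Dnmt3aa.

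Signals were compared as log2 of the deposited normalized intensity, called the log2 signal score below. Fold changes are 5-somite over shield on the log2 scale. A probe was called when its adjusted p-value in limma was 0.01 or lower. By the flag of the scanner software, 73.6 to 75.5% of the probes on the 5-somite arrays and 66.7 to 70.6% on the shield arrays were well above background, and 0 features were saturated. The replicates of MZdnmt3aa were less alike than those of the other genotypes. The median standard deviation of a probe was 0.17 at 5-somite and 0.25 at shield in MZdnmt3aa, against 0.08 and 0.07 in WT and 0.1 and 0.07 in dnmt3bb.2. Across probes, replicates correlated with r between 0.976 and 0.994 at 5-somite and between 0.971 and 0.980 at shield. The 5-somite replicate 3 stood apart, since it was the 5-somite array nearest to the shield arrays for 53.9% of the higher and 50.3% of the lower probes. Among the 6 arrays it was alone on its slide, as was shield replicate 1 on another. For these arrays pool and slide cannot be told apart. All 6 arrays were scanned on the same day, whereas in WT and in dnmt3bb.2 the 2 stages were scanned on different days. The p-values measure the spread between these pools only, and 3 arrays per stage limit the precision of every value.

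The targeted gene was examined first. The dnmt3aa probe had log2 signal scores of 8.3, 8.33 and 8.49 on the 5-somite arrays and 9.42, 9.27 and 9.33 on the shield arrays of the embryos labelled dnmt3aa-/-. The transcript was thus detected on all 6 arrays, and its level fell between the stages (log2 fold change -0.97, standard error 0.13, adjusted p = 0.00142). The stage change of the same probe was -0.56 in WT and -1.04 in dnmt3bb.2. Its mean score was higher in MZdnmt3aa, at 9.34 at shield and 8.37 at 5-somite, than in the other genotypes. In WT it was 8.39 and 7.83, and in dnmt3bb.2 8.65 and 7.61, on arrays scanned on other days. This gap in level was not tested. The probe reads a transcript and not the function of the protein, and whether it lies in the mutated part is not known here, so it checks no label.

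Of 35717 tested probes, 15574 (43.6%) were called, 9029 higher at 5-somite (25.3%) and 6545 lower (18.3%). The change was at least 2-fold for 8027 of the higher and 5196 of the lower probes (37.0% of those tested), and at least 16-fold for 1711 and 453. Without 5-somite replicate 1 or 2 the count was 9671 or 10254, and without replicate 3 it was 13671. The 6 arrays lie on 3 slides. On the slide that holds 2 arrays of each stage 12982 probes were called, and with the slide as a random block 17066. The fit on that slide leaves out 5-somite replicate 3 and shield replicate 1. For every called probe the values of the 2 stages did not overlap. Probes that were not called, such as those of id3, efnb2a and sox19b, could also lack overlap. The share of all tested probes without overlap was not counted, so this does not set the called probes apart. When each gene was read by its brightest probe alone, 3551 of 13081 genes were higher (27.1%) and 2342 were lower (17.9%), together 45.1%, and 38.1% were called with a change of at least 2-fold. The median log2 fold change of all genes was 0.2. This excess of higher calls depended on the scaling. Higher calls were 58.0% of all calls here, 50.6% with scaling to the 75th percentile, 46.1% after quantile normalization and 40.5% after normexp background correction. The normexp setting adds an offset of 50 and then scales to the 75th percentile, so its values do not reflect the correction alone. The median log2 fold change of all tested probes was 0.14 with the deposited scaling and -0.02, -0.12 and -0.2 under these alternatives, so small changes are to be read against a shift of that size. The 5 called probes nearest to the threshold had adjusted p-values from 0.0099951 to 0.0099995 and absolute log2 fold changes of 0.54 to 2.2. The 5 just outside it had adjusted p-values from 0.01 to 0.01002 and absolute log2 fold changes of 0.55 to 3.38. Among 7285 genes with at least 2 tested probes, 50 had probes called in opposite directions.

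Ranked here are called probes, 1 per gene, well above background on 3 arrays of the brighter stage and at least 1 of the dimmer. Genes with no such array at the dimmer stage follow further below. The 12 lowest changes of this ranking included genes of Nodal signalling, endoderm and yolk syncytial layer. The Nodal ligand ndr1, which induces mesoderm and endoderm, had 4.89, 4.17 and 5.49 on the 5-somite arrays and 11.46, 11.57 and 12.59 on the shield arrays (log2 fold change -7.02, standard error 0.44, adjusted p = 7.43e-05). Its signal was well above background on all shield arrays and on 2 of 3 5-somite arrays. The SOX factor sox32, which specifies endoderm, had 6.93, 6.55 and 9.57 on the 5-somite arrays and 15.29, 15.03 and 15.05 on the shield arrays on the probe with the larger change (log2 fold change -7.44, standard error 0.79, adjusted p = 0.000487). The stages did not overlap, but 5-somite replicate 3 lay more than 2 log2 units above the other 5-somite arrays. The homeodomain factor mxtx2 of the yolk syncytial layer had 5.22, 4.72 and 5.29 on the 5-somite arrays and 11.82, 11.24 and 12.75 on the shield arrays (log2 fold change -6.86, standard error 0.4, adjusted p = 5.99e-05). The other leading falls included cth1, a zinc finger protein, at -6.31, the cyclin ccnp at -6.33, me1, a malic enzyme, at -6.38, and add3b, an adducin, at -7.01. The fall of me1 was -1.44 in WT and -3.56 in dnmt3bb.2, and its difference is taken up below.

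The 12 highest changes of the same ranking included genes of hatching gland, muscle, yolk and gut. Hatching enzyme he1.2, a protease of the hatching gland, had 15.31, 15.45 and 14.31 on the 5-somite arrays and 3.19, 2.42 and 4.45 on the shield arrays (log2 fold change 11.67, standard error 0.57, adjusted p = 3.44e-05). The nuclear receptor nr2f5 had 14.86, 14.79 and 14.8 on the 5-somite arrays and 4.86, 2.39 and 3.33 on the shield arrays (log2 fold change 11.28, standard error 0.6, adjusted p = 4.35e-05). Myosin light chain myl10 had 14.69, 14.61 and 14.78 on the 5-somite arrays and 2.83, 3 and 4.95 on the shield arrays on its leading probe (log2 fold change 11.11, standard error 0.57, adjusted p = 3.91e-05). On the brightest myl10 probe the change was smaller, as no gene of the muscle list exceeded 9.78 on its brightest probe. On the probes given for these 3 genes only 1 shield array was well above background, so the low end of these changes is close to what the arrays can read. Serpin serpina1 and the fatty acid binding protein fabp2, made by yolk and gut tissue, were measured on all 6 arrays and rose by 10.69 and 9.47. The ligand bmp3 rose by 9.61 and the eye regulator mab21l2 by 9.07, each with 1 shield array well above background. Skeletal actin acta1a was read differently by its probes. On 2 probes it rose by 9.79, with 14.04, 14 and 13.39 at 5-somite and 3.3, 2.61 and 6.15 at shield on the dimmer of them. On the brightest probe the scores were 15.95, 15.9 and 15.92 on the 5-somite arrays and 15.11, 14.88 and 14.74 on the shield arrays, a rise of 1.01. Actin genes are near-identical copies, so this family is uncertain here.

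**Figure D1:**
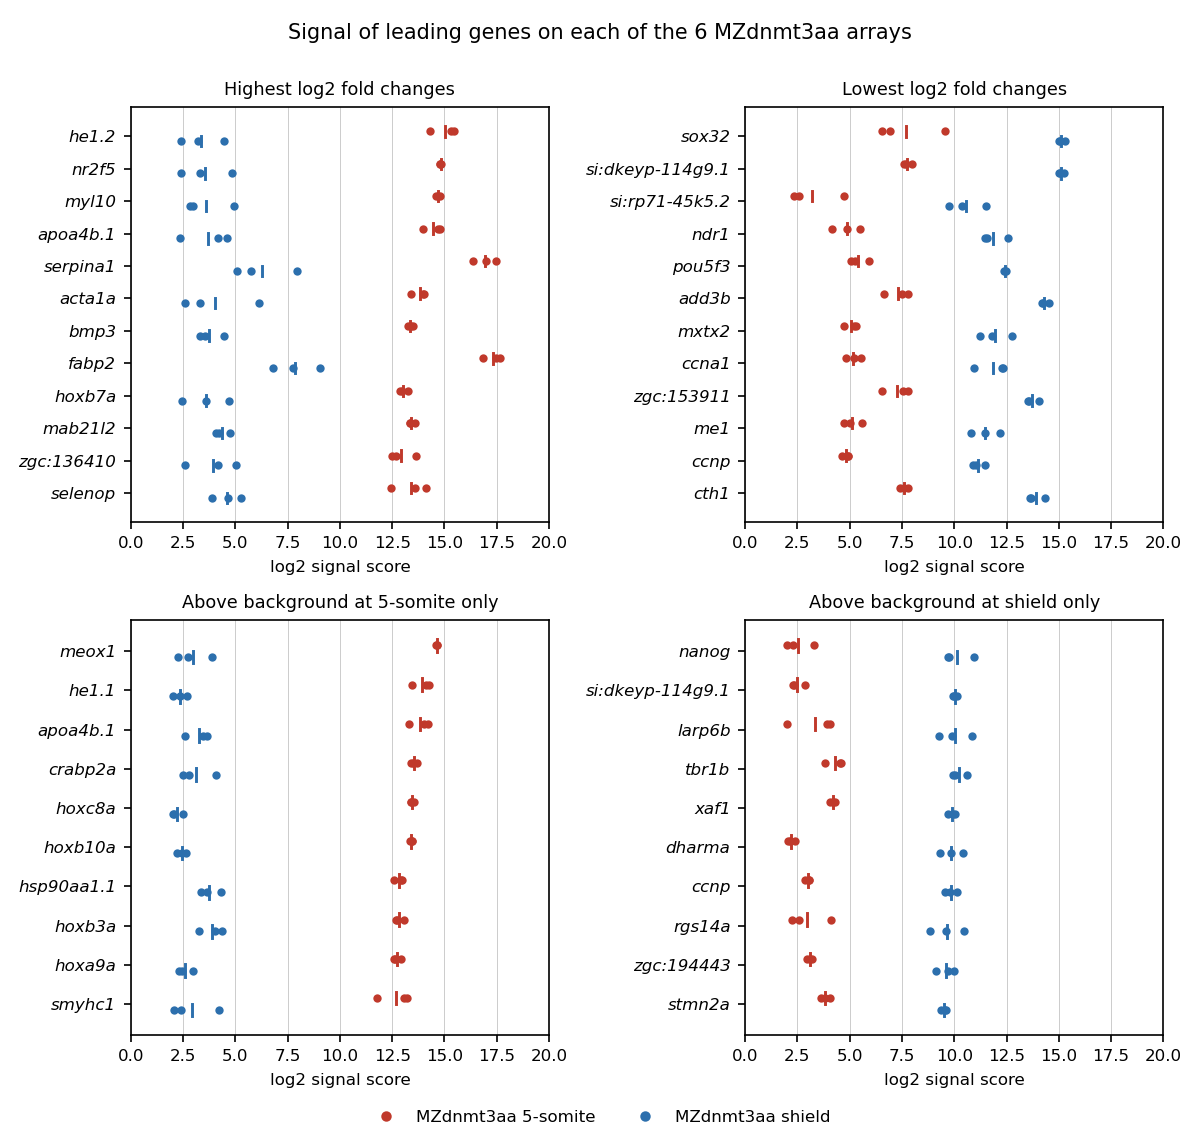
Log2 signal score (x axis) of leading genes (rows) on each of the 3 MZdnmt3aa 5-somite arrays (red) and the 3 MZdnmt3aa shield arrays (blue), 1 point per array, with the mean of each stage as a short line. No gene shown has overlapping stages, which was required of the highest and lowest changes and held for every called probe. For sox32, 5-somite replicate 3, at 9.57, is the 5-somite point nearest to the shield arrays.

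A stricter class holds genes that crossed the detection limit. A probe counted as switched on when it was called higher and well above background on 3 of 3 5-somite and 0 of 3 shield arrays, and as switched off in the reverse case. There were 2013 switched-on probes (5.64% of those tested) and 633 switched-off probes (1.77%), standing for 977 and 312 gene symbols. With 1 probe per gene, 584 genes were switched on (4.46%) and 171 switched off (1.31%). A dim stage gives only a bound, so folds are stated as at least N-fold. The bound sets the mean of the bright stage against the mean of the dim stage, where each dim array takes the higher of its own value and the lowest signal well above background on that array. The median bound was 6.14-fold for genes switched on, with a range of 1.17 to 1198, and 94 genes reached at least 32-fold. For genes switched off it was 4.3-fold, with a range of 1.36 to 51.7, and 4 genes reached that size. A switched-off probe left a signal not well above background at 5-somite, which is not the absence of a transcript.

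The switched-on genes are given by their bounds. The homeodomain factor meox1 of the somites had 14.65, 14.62 and 14.66 on the 5-somite arrays, and 2.74, 3.87 and 2.25 on the shield arrays, none of them well above background. It was at least 1198-fold higher at 5-somite (adjusted p = 1.22e-05). Hatching enzyme he1.1 was at least 739-fold higher, the apolipoprotein apoa4b.1 at least 682-fold, and crabp2a, a retinoic acid binding protein, at least 558-fold. The same class held hoxc8a (at least 521-fold), hoxb10a (508-fold), hoxb3a (343-fold) and hoxa9a (318-fold). Slow myosin heavy chain smyhc1 was at least 307-fold higher, with 13.09, 13.2 and 11.75 at 5-somite, where replicate 3 was the lowest. These genes are read by several probes, and on other probes of meox1 and crabp2a the rise was between 7.11 and 10.61 on the log2 scale.

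The organizer gene dharma and the genome activator nanog stood among the switched-off genes. The homeodomain factor dharma, which sets up the organizer, had 2.12, 2.38 and 2.04 on the 5-somite arrays and 9.84, 9.34 and 10.42 on the shield arrays. It was at least 46.6-fold lower at 5-somite (adjusted p = 1.58e-05). The T-box factor tbr1b was at least 50.8-fold lower, the RNA-binding protein larp6b at least 51.7-fold, xaf1 at least 46.9-fold, and the stathmin stmn2a at least 36.3-fold. For nanog the class rests on a dim probe (2.01, 2.3 and 3.28 on the 5-somite arrays and 9.73, 9.71 and 10.96 on the shield arrays), with a fall of at least 56.1-fold. The brightest nanog probe still read 8.95, 8.84 and 9.95 on the 5-somite arrays, well above background on all 3, against 15, 15.08 and 16.36 on the shield arrays. Likewise brighter probes of xaf1 and si:dkeyp-114g9.1 stayed well above background on 3 of 3 5-somite arrays while they fell by 6.01 and 7.32 on the log2 scale. The crossing of the limit is thus a property of the probe, whereas the fall was seen on each of these probes.

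The 18 gene lists described next were written from general knowledge and chosen with earlier results of these data known. Their counts are descriptions, to be read beside the 27.1% of genes called higher, the 17.9% called lower and the median of 0.2 over all genes. Each list uses 1 probe per gene, and some genes stand in more than 1 list. Members named beyond the ends of a list were picked for their known role after their values had been seen. After normexp background correction, with its offset and 75th percentile scaling, the medians of the rising lists were smaller. They were 2.62 for Hox, 2.1 for neural, 1.82 for muscle, 1.38 for neural crest and 1.29 for yolk genes. For midline, blood and heart genes they were 1.02, 0.47 and 0.04. With scaling to the 75th percentile alone the medians were 6.71 for Hox, 3.87 for neural and 4.57 for muscle genes. Where no array of the dim stage was well above background, genes are given by their bound as a fold, and all other rises and falls are log2 fold changes. The list medians use measured values. With such genes at their bound the medians were 5.74 for Hox, 3.96 for neural and 3.23 for muscle genes. They were 2.4 for yolk, 1.53 for midline and 0.1 for late differentiation genes, and those of the other lists did not change. In RNA of whole embryos, more cells of a type and more RNA per cell cannot be told apart.

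**Figure D2:**
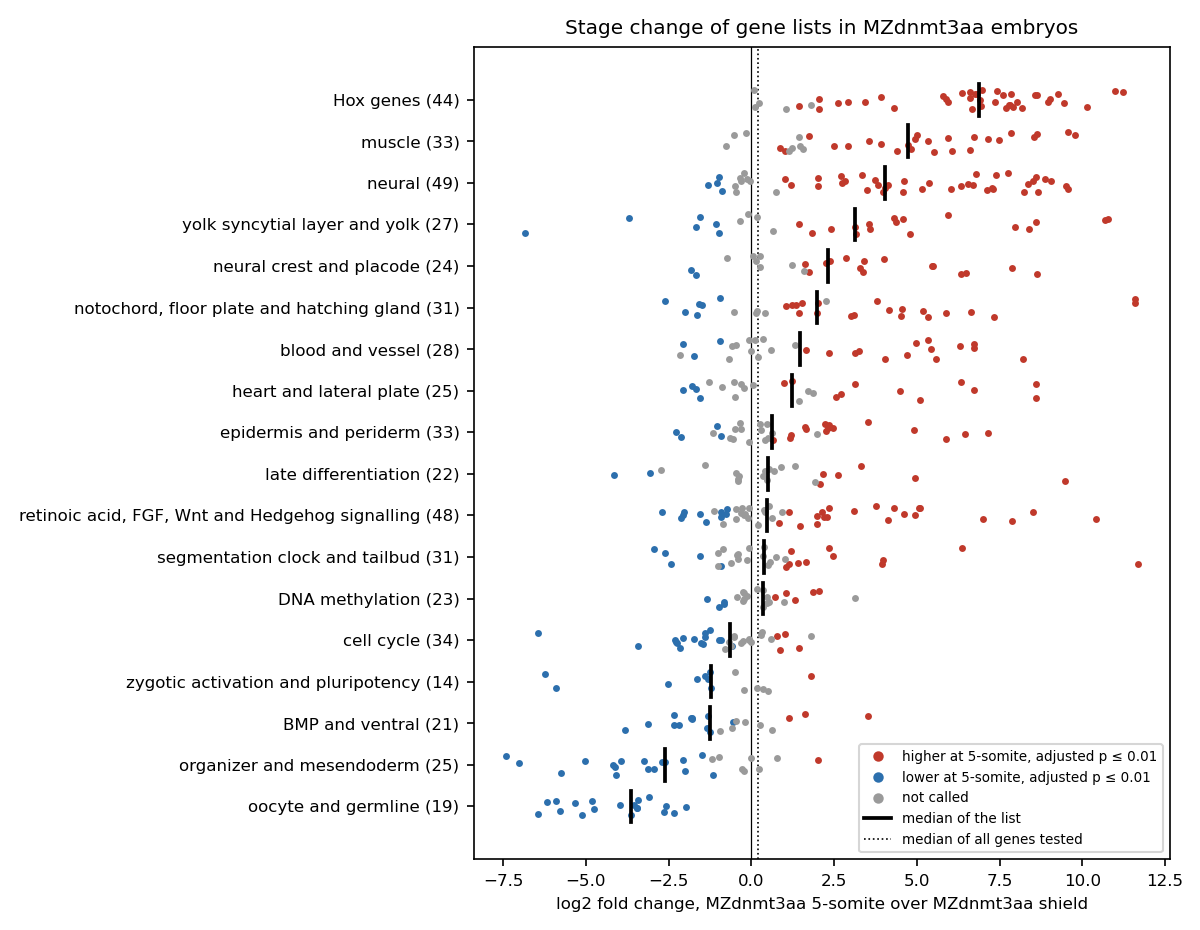
Log2 fold change, 5-somite over shield, in MZdnmt3aa (x axis) of every tested gene of each list (rows), 1 point per gene, coloured as called higher, called lower or not called, with the median of each list as a bar and that of all genes as a dotted line. The medians use measured values without bounds and run from -3.63 for oocyte and germline genes to 6.87 for Hox genes.

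Organizer and mesendoderm genes fell. Of 25 tested genes, 17 were lower, 1 was higher and 7 were not called, with a median of -2.62 in MZdnmt3aa, -2.56 in WT and -2.59 in dnmt3bb.2. Beside ndr1 and sox32, mixl1, a homeodomain factor of mesendoderm, had 8.24, 8.05 and 10.04 on the 5-somite arrays and 13.35, 15.09 and 15.098 on the shield arrays (log2 fold change -5.74, adjusted p = 0.000906), where shield replicate 1 was the lowest of its stage. The maternal T-box factor eomesa, which activates endoderm genes, fell by 5.02 and the second Nodal ligand ndr2 by 4.18. The Nodal antagonist lft2 and the organizer repressor gsc changed by -4.1 and -3.12, and the BMP antagonist chrd by -1.16. The exception was the head factor otx2b, which later marks forebrain and midbrain, with 13.66, 13.47 and 14.29 on the 5-somite arrays and 12.13, 11.75 and 11.5 on the shield arrays (log2 fold change 2.02, adjusted p = 0.00138). The antagonists dkk1b and frzb, at -0.28 and -0.97, and gata5, at -0.22, were not called.

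In the BMP and ventral list 12 of 21 genes were lower, 3 were higher and 6 were not called. The median was -1.24 in MZdnmt3aa, -1.16 in WT and -0.96 in dnmt3bb.2. The ligands of the list included 4 that fell, with admp at -3.83, bmp7a at -2.34, bmp2b at -2.33 and bmp4 at -1.81. For bmp2b the scores were 9.53, 9.53 and 10.08 on the 5-somite arrays and 12.1, 12.03 and 11.99 on the shield arrays. The ventral repressors ved, vent and vox fell by 2.19, 1.32 and 1.24, and the posterior factor eve1 by 3.12. The 3 higher genes work in later tissues. They were tp63, a regulator of the epidermis, at 3.53, msx1b, a BMP target in the neural plate border, at 1.63, and cdx4, a regulator of posterior Hox genes, at 1.15. The BMP targets id1 and id3, at -0.19 and 0.27, were not called.

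Pluripotency factors of genome activation fell steeply, while their SoxB1 partner did not. The POU factor pou5f3 had 11.96, 11.72 and 12.76 on the 5-somite arrays and 18.16, 18.11 and 17.92 on the shield arrays on its brightest probe (log2 fold change -5.92, standard error 0.29, adjusted p = 3.35e-05), so that it was still well above background at 5-somite. The homeodomain factor nanog fell by 6.23 on its brightest probe (adjusted p = 0.000146). In contrast sox19b, the maternal SoxB1 factor that acts with them, had 12.7, 12.78 and 12.74 on the 5-somite arrays and 12.38, 12.21 and 12.58 on the shield arrays and was not called (adjusted p = 0.0888). Of the 14 genes of the zygotic activation list 8 were lower, 1 was higher and 5 were not called. The median was -1.22 in MZdnmt3aa, -0.96 in WT and -1.05 in dnmt3bb.2. The higher gene was mycn, a Myc factor of growing progenitors, at 1.81, whereas its relative mych fell by 1.4.

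All 19 tested genes of the oocyte and germline list were lower, with a median of -3.63 in MZdnmt3aa, -3.11 in WT and -3.27 in dnmt3bb.2. These are mostly transcripts that the mother loads into the egg. The maternal cyclin ccna1 had 8.11, 8.35 and 8.46 on the 5-somite arrays and 15.01, 14.14 and 15.09 on the shield arrays (log2 fold change -6.44, standard error 0.29, adjusted p = 2.55e-05). The oocyte linker histone h1m had 8.27, 8.27 and 8.84 on the 5-somite arrays and 14.12, 13.83 and 15.13 on the shield arrays (log2 fold change -5.9, standard error 0.37, adjusted p = 7.66e-05). Shield replicate 3 was the highest shield array for both genes. The maternal claudin cldnd fell by 6.17, the oocyte kinase wee2 by 5.77 and the histone chaperone npm2a by 5.33. Germ plasm genes belonged to the same group, with ddx4, an RNA helicase of the germline, at -5.12, dazl at -3.55, dnd1 at -3.41 and nanos3 at -2.63. The smallest fall was that of the egg coat gene zp3b, at -1.97.

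Cyclins fell and replication genes were split. In the cell cycle list 16 of 34 genes were lower, 4 were higher and 14 were not called, with a median of -0.64 in MZdnmt3aa, -0.61 in WT and -0.83 in dnmt3bb.2. The S-phase cyclin ccne1 had 11.23, 11.2 and 11.49 on the 5-somite arrays and 14.65, 14.57 and 15.01 on the shield arrays (log2 fold change -3.44, adjusted p = 4.07e-05). The mitotic cyclin ccnb2 fell by 2.31, the licensing factor cdc6 by 2.27 and the anaphase inhibitor fbxo5 by 2.25. The 4 higher genes were the helicase subunits mcm2 (1.44) and mcm6 (1), the checkpoint kinase chek1 (0.87) and the mitotic kinase cdk1 (0.77). These rises were not stable, since no cell cycle gene was called higher without shield replicate 1 or 2 or without 5-somite replicate 1 or 2, and 1 was without 5-somite replicate 3. With scaling to the 75th percentile there were also 0 higher genes.

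The Hox genes, which give the body axis its positional identity, showed the highest median of all lists. Of 44 tested genes 39 were higher, 0 were lower and 5 were not called, with a median of 6.87 in MZdnmt3aa, 7.06 in WT and 7.18 in dnmt3bb.2. For 28 genes the dim stage had no array well above background, and with these at their bound the MZdnmt3aa median was 5.74. For 26 of them the brightest probe was switched on. The trunk gene hoxc8a had 13.4, 13.39 and 13.54 on the 5-somite arrays and 2.08, 2.5 and 2.03 on the shield arrays, with 0 shield arrays well above background (at least 521-fold higher, adjusted p = 5.68e-06). For hoxb10a the scores were 13.46, 13.43 and 13.34 on the 5-somite arrays and 2.44, 2.63 and 2.22 on the shield arrays (at least 508-fold, adjusted p = 5.68e-06), and for the hindbrain gene hoxb3a they were 12.75, 12.68 and 13.09 on the 5-somite arrays and 4.04, 4.34 and 3.24 on the shield arrays (at least 343-fold, adjusted p = 1.22e-05). No shield array was well above background for any of these genes, so their shield scores have no order.

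The Hox genes are given by paralogue group, with medians that hold genes at their bound where the dim stage was not well above background. In paralogue groups 1 to 4, expressed in the hindbrain and anterior trunk, 14 of 14 genes were higher with a median of 5.81. In groups 5 to 8 the count was 10 of 12 with a median of 5.74, and in groups 9 to 10 it was 8 of 8 with a median of 6.73. In groups 11 to 13, the genes of the tail end, 7 of 10 were higher and the median was 1.72. The lowest values of the last set were 0.07 for hoxb13a and 0.11 for hoxc12b, neither called, while hoxd11a was at least 57.3-fold and hoxa11b at least 22.7-fold higher. The other genes not called were hoxc6a (0.24), hoxb8a (1.05) and hoxd13a, with 0 shield arrays well above background. No test was made of the difference between the paralogue groups.

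**Figure D3:**
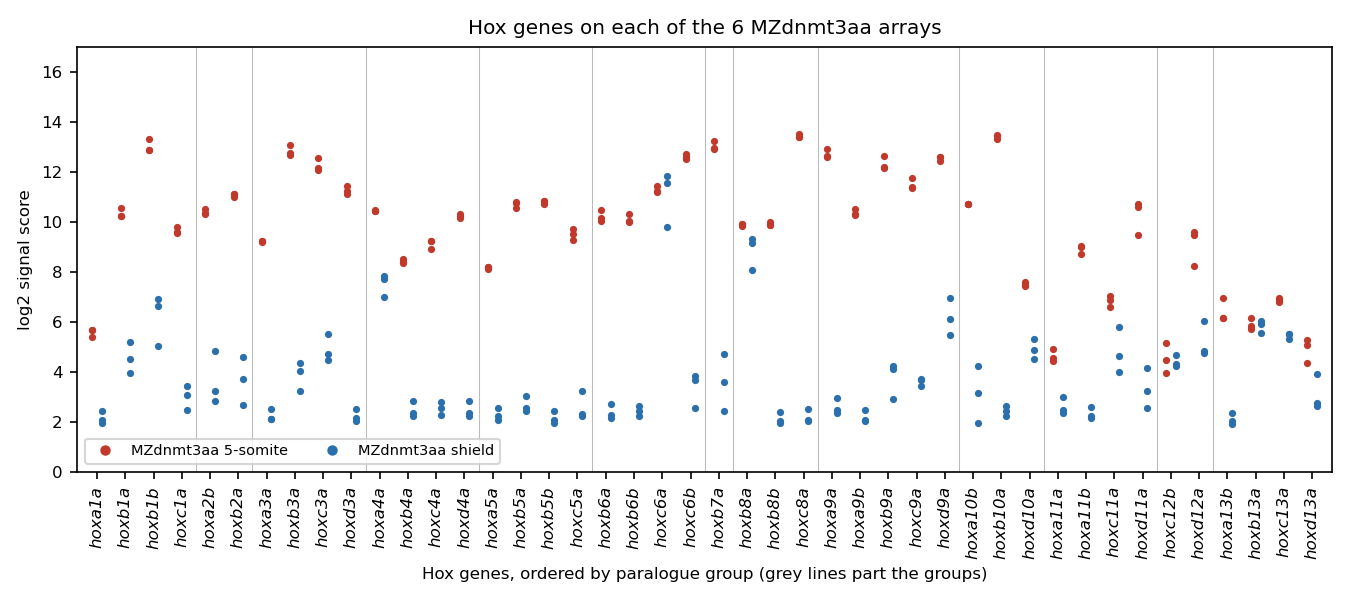
Log2 signal score (y axis) of each tested Hox gene, ordered by paralogue group from 1 to 13 (x axis), on each of the 3 MZdnmt3aa 5-somite arrays (red) and the 3 MZdnmt3aa shield arrays (blue). Most genes of groups 1 to 10 sit far apart between the stages, hoxc6a overlaps and hoxb8a lies close, and the distance is smaller for most genes of groups 11 to 13, where the median change was 1.72 with genes at their bound.

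Segmentation genes were called in both directions, as genes in general were. The list holds the oscillating genes, the tailbud and the maturing somites, and 11 of 31 genes were higher, 5 were lower and 15 were not called. The median was 0.38 in MZdnmt3aa, 0.68 in WT and 0.37 in dnmt3bb.2. Genes of the presomitic mesoderm and of maturing somites were among those that rose. Beside meox1, tbx6, a T-box factor of the presomitic mesoderm, had 13.7, 13.51 and 13.51 on the 5-somite arrays and 7.11, 7.84 and 6.63 on the shield arrays (log2 fold change 6.38, adjusted p = 3.41e-05). The somite boundary genes mespbb, mespba and ripply2 rose by 3.98, 1.64 and 2.45. Genes of the early mesoderm fell, namely tbx16 by 2.95, tbxta, the Brachyury factor, by 2.62 and wnt8a by 1.57. The bHLH factor mespaa fell too, with 10.59, 10.45 and 10.61 on the 5-somite arrays and 12.88, 13.07 and 12.99 on the shield arrays (log2 fold change -2.43, adjusted p = 5.03e-05). Of the oscillating repressors her12 rose by 3.95, whereas her1 and her7 had values of -1 and -1.01 and were not called. Without 5-somite replicate 1 or 2, 3 genes of this list were called lower, after normexp background correction 8 were, and with the slide as a fixed block over all 15 MZdnmt3aa arrays 6 were called higher and 3 lower.

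Myogenic factors and filament genes were among the muscle genes that rose. Of 33 tested genes 25 were higher, 0 were lower and 8 were not called, and 11 were switched on. The median was 4.74 in MZdnmt3aa, 4.55 in WT and 4.3 in dnmt3bb.2. For 12 genes the dim stage had no array well above background, and with these at their bound the MZdnmt3aa median was 3.23. The myogenic factor myog, which drives differentiation, had 10.05, 10.003 and 9.36 on the 5-somite arrays and 2.39, 3.02 and 2.53 on the shield arrays, with 0 shield arrays well above background (at least 41.9-fold higher, adjusted p = 1.44e-05). Its relatives myod1 and myf5 rose by 6.62 and 4.99, and myf6 was at least 5.46-fold higher. The myosin chaperones hsp90aa1.1 and unc45b rose by 8.54 and 3.55. The filament genes desma (desmin) and ttn.2 (titin) were at least 113-fold and 56.8-fold higher. The myosin light chain genes mylpfa, at 1.47, and myl1, at 1.15, were not called, nor was the calcium channel gene cacna1sb, with 0 of 3 5-somite arrays well above background.

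Neural genes formed the longest list, and 37 of 49 were higher, 4 were lower and 8 were not called. The median was 4.03 in MZdnmt3aa, 4.68 in WT and 4.31 in dnmt3bb.2. The eye and hindbrain factor pax6a had 12.39, 12.27 and 12.49 on the 5-somite arrays and 3.41, 2.81 and 2.38 on the shield arrays (at least 250-fold higher, adjusted p = 7.62e-06), and the SoxB1 factor sox1b had 12.2, 12.1 and 12.28 on the 5-somite arrays and 2.37, 2.99 and 2.51 on the shield arrays (at least 219-fold higher, adjusted p = 5.68e-06). In both cases no shield array was well above background and the 3 5-somite arrays lay close together. Regional factors of the brain rose as well, with egr2b of the hindbrain at 8.66, pax2a of the midbrain-hindbrain boundary at 8.61, and foxg1a of the forebrain at 7.77. The eye field gene rx3 was at least 19.5-fold and en2a at least 106-fold higher. Genes of neuronal differentiation followed, with neurod4 at least 171-fold, elavl3 at least 18.1-fold and isl1a at least 75.4-fold higher. The lower genes included sox3 (-1.3), gbx1 (-1.03) and the stathmin stmn1b (-0.97). The count of lower genes was 2 without shield replicate 1 or 2, and 1 without shield replicate 3, 5-somite replicate 1 or 5-somite replicate 2. The early neural factors sox2 and sox19a, at -0.35 and -0.49, were not called.

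In the neural crest and placode list 15 of 24 genes were higher, 2 were lower and 7 were not called, with a median of 2.31 in MZdnmt3aa, 2.21 in WT and 2.73 in dnmt3bb.2. The crest factor sox10 had 13.24, 13.18 and 12.89 on the 5-somite arrays and 8.31, 6.94 and 7.63 on the shield arrays (log2 fold change 5.48, adjusted p = 8.16e-05). The neural plate border factor pax3a was at least 47.1-fold and the placode factor six1b at least 201-fold higher, and the placode factor dlx4b rose by 6.49. The lens factor pitx3 rose by 6.34. The forkhead factor foxi1 fell by 1.82 and snai2, an early crest factor, by 1.68. The AP-2 factor tfap2a, an early crest inducer, had 0.28 and was not called.

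In the blood and vessel list the specifiers tal1, lmo2 and etsrp rose. Of 28 tested genes 14 were higher, 3 were lower and 11 were not called, with a median of 1.48 in MZdnmt3aa, 2.96 in WT and 1.62 in dnmt3bb.2. The haemangioblast factor tal1 had 13.43, 13.16 and 13.34 on the 5-somite arrays and 8.51, 7.13 and 8 on the shield arrays (log2 fold change 5.43, adjusted p = 8.39e-05), and its partner lmo2 rose by 6.31. The endothelial ETS factor etsrp rose by 6.72, its relative fli1 was at least 70.8-fold higher, and the vessel gene egfl7 at least 86-fold. The red cell factor gata1a and the embryonic globin hbae1.1 rose by 4.98 and 5.32. The 3 lower genes were the apelin receptor aplnrb (-2.06), erg (-1.73) and tek (-0.96). Without shield replicate 1 or without shield replicate 2 the list had 1 gene called lower.

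The heart and lateral plate list had 11 higher, 4 lower and 10 not called genes among 25, with a median of 1.23 in MZdnmt3aa, 0.71 in WT and 1.29 in dnmt3bb.2. The bHLH factor hand2, needed for heart and fin, had 12.42, 12.42 and 12.86 on the 5-somite arrays and 5.2, 2.72 and 3.99 on the shield arrays (log2 fold change 8.6, adjusted p = 0.00011). The cardiac factors nkx2.7 and gata4 rose by 6.34 and 4.48, and nkx2.5 was at least 5.19-fold higher. The dand5 gene, a Nodal antagonist of the left-right organizer, was at least 7.02-fold higher. The cardiac myosin gene myl7 of the beating heart was not called, with 0 of 3 5-somite arrays well above background. The lower genes were lhx1a (-2.07), bmp4 (-1.81), gata6 (-1.67) and osr1 (-1.55).

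The axial midline list held falls of early factors beside rises of sheath and hatching gland genes. Of 31 genes of notochord, floor plate and hatching gland 20 were higher, 6 were lower and 5 were not called, with a median of 1.99 in MZdnmt3aa, 2.4 in WT and 2.1 in dnmt3bb.2. The notochord factor tbxta fell by 2.62 and noto fell by 1.49, and the forkhead factors foxa3 and foxa by 1.99 and 1.59. The collagen gene col2a1a of the notochord sheath had 13.54, 13.6 and 13.18 on the 5-somite arrays and 6.66, 5.21 and 6.5 on the shield arrays (log2 fold change 7.32, adjusted p = 4.96e-05). The sheath protein cmn was at least 12.2-fold higher, and the lysyl oxidase loxl5b and the signal shha rose by 5.18 and 3.09. The hatching gland cathepsin ctslb reached some of the highest scores of all named genes, with 18.84, 18.71 and 18.71 on the 5-somite arrays and 12.99, 12.52 and 10.82 on the shield arrays (log2 fold change 6.64, adjusted p = 0.000198).

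In the epidermis list the ionocyte factors gcm2, foxi3a and foxi3b rose. Of 33 genes 15 were higher, 4 were lower and 14 were not called, with a median of 0.64 in MZdnmt3aa, 0.66 in WT and 0.53 in dnmt3bb.2. For foxi3a the scores were 9.95, 9.98 and 10.21 on the 5-somite arrays and 3.96, 4.49 and 4.09 on the shield arrays (at least 49.6-fold higher, adjusted p = 9.84e-06). The bounds were 53.9-fold for gcm2 and 7.04-fold for foxi3b. Among claudins, cldni rose by 6.45 and cldne fell by 2.27. E-cadherin, cdh1, fell by 1.03. The keratin krt4, among the brightest genes of the list, had 0.47 and was not called. With all 15 MZdnmt3aa arrays in the fit 5 genes of this list were called higher, with or without the slide as a fixed block.

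In the yolk syncytial layer list a pair of regulators fell and secreted proteins rose. Of 27 genes 17 were higher, 6 were lower and 4 were not called, with a median of 3.12 in MZdnmt3aa, 3.11 in WT and 2.7 in dnmt3bb.2. While mxtx2 fell by 6.86 and hnf4a, a nuclear receptor, by 3.69, the apolipoprotein apobb.1 had 16.6, 17.05 and 16.18 on the 5-somite arrays and 8.83, 9.23 and 7.87 on the shield arrays (log2 fold change 7.97, adjusted p = 3.82e-05). Further rises were apoa2 at 5.93, apoa1a at 4.81, the serpin serpina1l at 8.6 and the selenium carrier selenop at 8.4. In apoa2, apobb.1 and selenop 5-somite replicate 3 was the lowest of its stage. Without 5-somite replicate 1, 3 genes of this list were called lower, and with the slide as a fixed block over all 15 MZdnmt3aa arrays 9 were called higher and 2 lower.

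The signalling list covers retinoic acid, FGF, Wnt and Hedgehog genes, and 21 of 48 were higher, 10 were lower and 17 were not called. The median was 0.46 in MZdnmt3aa, 0.6 in WT and 0.75 in dnmt3bb.2. Among retinoic acid genes crabp2a was at least 558-fold and the retinaldehyde reductase dhrs3a at least 79.6-fold higher. The degrading enzyme cyp26c1 rose by 7.89, whereas its relative cyp26a1 fell by 0.93. Among Wnt ligands wnt11 and wnt11f2 went opposite ways. The first had 13.07, 12.97 and 12.89 on the 5-somite arrays and 6.89, 6.01 and 5.06 on the shield arrays (log2 fold change 6.99, adjusted p = 7.82e-05), and the second had 10.67, 10.62 and 11.3 on the 5-somite arrays and 12.96, 13.65 and 14.04 on the shield arrays (log2 fold change -2.69, adjusted p = 0.000921). The Hedgehog genes shha, hhip and gli3 rose by 3.09, 3.77 and 4.31. The FGF ligand fgf24 fell by 2.07 and fgf10a was at least 8.88-fold higher, while fgf8a, at 0.38, was not called. The count of lower genes was 4 without 5-somite replicate 1 or 2, 5 without shield replicate 2 and 6 without shield replicate 1.

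Genes of late differentiation were called higher at a share close to the 27.1% of all genes, so this list checks no stage label. Of 22 genes 6 were higher, 2 were lower and 14 were not called, with a median of 0.51, which was -0.2 after normexp background correction. The pancreatic protease prss1, at 0.4, was not called. The higher genes were fabp2 (9.47), mybphb (4.94), myhz1.1 (3.31), pmela (2.61), cel.1 (at least 1.14-fold) and lyz (at least 2.04-fold), where the log2 fold changes of cel.1 and lyz were -0.22 and -0.051 after normexp background correction and 0 shield arrays were well above background for both. The shield markers gsc, chrd and ndr1 were well above background on all shield arrays, and ndr1 also on 2 of 3 5-somite arrays. The somite markers meox1 and myog were well above background on all 5-somite arrays and 0 shield arrays. Since ndr1 and meox1 are leading genes of this same comparison, these markers give no independent check of the labels. The lower genes were ckma, a muscle creatine kinase, at -3.08 on its brightest probe, and dct, a melanin enzyme. For dct the scores were 2.09, 3.02 and 4.16 on the 5-somite arrays and 6.42, 6.67 and 8.63 on the shield arrays, with 0 of 3 5-somite arrays well above background (at least 7.56-fold lower, adjusted p = 0.00431).

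Among the DNA methylation genes 5 of 23 were higher, 4 were lower and 14 were not called. Neither share exceeded that of all genes, 27.1% higher and 17.9% lower. The median was 0.34 in MZdnmt3aa, 0.17 in WT and 0.56 in dnmt3bb.2, and that of MZdnmt3aa was -0.0044 after normexp background correction. The maintenance partner uhrf1 had 13.86, 13.8 and 13.96 on the 5-somite arrays and 15.16, 15.11 and 15.35 on the shield arrays (log2 fold change -1.33, adjusted p = 0.000471). Of the other de novo methyltransferases, dnmt3ba, dnmt3bb.1, dnmt3bb.2 and dnmt3bb.3 changed by 0.34, -0.42, -0.23 and 0.17 on their brightest probes, and none was called. The closest relative, dnmt3ab, had 2 probes. On the dimmer it rose by 3.28 (adjusted p = 0.0035), with 8.48, 8.6 and 7.37 on the 5-somite arrays and 5.99, 4.38 and 4.25 on the shield arrays, and on the brighter it had 8.8, 8.92 and 7.14 on the 5-somite arrays and 7.57, 3.83 and 4.03 on the shield arrays and was not called (log2 fold change 3.14, adjusted p = 0.0479). On both probes 5-somite replicate 3 was the lowest of its stage and shield replicate 1 the highest of its stage. None of 5 dnmt1 probes was called. The methyl-CpG binding gene mbd2 rose by 1.85. The dioxygenase tet3, which oxidizes methylated cytosine, was at least 1.7-fold higher with 0 shield arrays well above background, and its log2 fold change was -0.096 after normexp background correction. These counts moved with the arrays in the fit. With all 15 MZdnmt3aa arrays 9 genes were higher, and with all 45 arrays 12. Without 5-somite replicate 1 the list had 1 higher and 1 lower gene, and without 5-somite replicate 2 it had 2 and 1. The higher count was 3 without shield replicate 1 or 5-somite replicate 3, and 2 without shield replicate 2.

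Most of these genes also moved over the same interval in the other genotypes. Of the 584 genes switched on in MZdnmt3aa, 561 changed in the same direction in WT, 521 were called in that direction and 9 in the opposite one. Their median was 4.12 in MZdnmt3aa and 3.97 in WT. In dnmt3bb.2 the counts were 561, 497 and 6, with a median of 3.51. Of the 171 genes switched off, 167 changed in the same direction in WT, 138 were called in it and 2 were called against it, with medians of -3.28 in MZdnmt3aa and -2.68 in WT. In dnmt3bb.2 the counts were 162, 132 and 0, with a median of -2.71. These counts are to be read beside those of all called genes. Of all 3551 genes called higher in MZdnmt3aa 3313 were called higher in WT, and of all 2342 called lower 2132 were called lower. In dnmt3bb.2 these counts were 3237 and 2072. In both genotypes these shares were larger than those of the switched genes. The detection class itself was shared less, since 411 of the switched-on and 100 of the switched-off genes also went between 3 of 3 and 0 of 3 arrays in WT. Across probes, which are not independent replicates, the stage change of MZdnmt3aa correlated with that of WT at r = 0.880 and with that of dnmt3bb.2 at r = 0.882.

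The difference between the stage changes was then tested directly, as the change in MZdnmt3aa minus the change in WT. Of 37336 probes 3121 (8.36%) were called, 1393 higher (3.73%) and 1728 lower (4.63%) in MZdnmt3aa. With 1 probe per gene the count was 1119 of 13081 (8.55%), 3.59% higher and 4.97% lower. In 1397 of the called probes both genotypes changed in the same direction and MZdnmt3aa changed less, in 714 it changed more, and in 1010 the directions were opposite. For 60.0% of them the gap between the genotypes was larger at shield than at 5-somite. In WT each stage has its own scan day, so a scan effect on WT and a difference of genotype cannot be told apart here. Fitting the slide as a random block left 1451 called probes. The called count lay between 1586 and 1916 when any 1 WT array or the MZdnmt3aa 5-somite replicate 1 or 2 was left out.

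Several of the largest differences from WT came with 1 WT group that stood apart. The nuclear export receptor gene xpo7 had 13.77, 13.63 and 13.86 at 5-somite and 12.72, 13.26 and 13.19 at shield in MZdnmt3aa. In WT it had 12.97, 12.95 and 12.87 at 5-somite and 2.82, 2.2 and 2.15 at shield (log2 difference -9.85, standard error 0.27, adjusted p = 3.22e-07). Only the WT shield arrays were low, none of them well above background, and another xpo7 probe had a difference of -0.95. Adult globin genes showed the reverse. For hbba1 the scores were 4.54, 7.43 and 4.02 at 5-somite and 5.14, 4.66 and 5.61 at shield in MZdnmt3aa, against 5.7, 5.02 and 5.2 at 5-somite and 12.28, 12.47 and 12.54 at shield in WT (log2 difference 7.32, standard error 1.01, adjusted p = 0.00126). For ba1l they were 4.97, 5.16 and 5.74 at 5-somite and 6.29, 4.67 and 7.23 at shield in MZdnmt3aa, against 5.33, 4.97 and 5.52 at 5-somite and 13.2, 13.21 and 13.26 at shield in WT (log2 difference 7.18, standard error 0.73, adjusted p = 0.000233). The WT shield group alone was high for both genes, and globin genes are near-identical copies. The gene ccdc125 was also high in WT shield alone, while il1rapl1a and s100w were high in WT 5-somite alone.

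Further differences from WT were spread over more than 1 group. The acetylcholine receptor subunit gene chrna11 had 8.79, 8.77 and 9.48 at 5-somite and 3.62, 2.74 and 3.96 at shield in MZdnmt3aa, against 4.98, 4.96 and 4.7 at 5-somite and 7.72, 7.38 and 7.41 at shield in WT (log2 difference 8.2, standard error 0.42, adjusted p = 4.91e-06). The directions were opposite, and both stages of MZdnmt3aa lay outside the WT range. No shield array of MZdnmt3aa was well above background, and the dnmt3bb.2 shield arrays, at 4.63, 4.85 and 4.74, also lay below WT. For selenop the rise was 8.4 in MZdnmt3aa and 4.92 in WT (log2 difference 3.49, standard error 0.5, adjusted p = 0.00155), with differences from 2.18 to 5.5 on 7 other probes. For malic enzyme me1 the stage change was -6.38 in MZdnmt3aa and -1.44 in WT (log2 difference -4.93, standard error 0.45, adjusted p = 0.000132), and its other probes had differences of -2.31 and -4.66. At 5-somite me1 had 4.73, 5.02 and 5.58 in MZdnmt3aa, 7.96, 7.81 and 8 in WT and 5.5, 5.5 and 5.43 in dnmt3bb.2. The WT arrays stood apart at that stage. At shield me1 had 10.78, 11.48 and 12.19 in MZdnmt3aa, 9.3, 9.44 and 9.36 in WT and 9.04, 8.87 and 9.21 in dnmt3bb.2. There the MZdnmt3aa arrays were the highest, and the difference of me1 from dnmt3bb.2 was called too (log2 difference -2.81, adjusted p = 0.00317). For the cyclin ccnp the stage change was -6.33 in MZdnmt3aa and -4.19 in WT (log2 difference -2.13, standard error 0.21, adjusted p = 0.000195).

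Of 498 genes of the lists 27 (5.42%) were called in the difference from WT, to be read beside the 8.55% of all genes. Epidermal icn and icn2, calcium-binding proteins whose probes gave similar scores, rose by 2.26 and 2.47 in MZdnmt3aa and by 5.82 and 5.99 in WT. In dnmt3bb.2 they rose by 1.38 and 1.87. For icn the scores were 15.14, 15.19 and 15.03 at 5-somite and 13, 12.61 and 12.98 at shield in MZdnmt3aa, against 14.19, 14.31 and 14.43 at 5-somite and 8.49, 8.41 and 8.55 at shield in WT (log2 difference -3.57, standard error 0.17, adjusted p = 3.71e-06). The dnmt3bb.2 shield arrays, at 12.67, 12.26 and 12.11, lay near those of MZdnmt3aa, so the WT shield group stood apart. The neuronal stathmin stmn1b went opposite ways, with 8.31, 8.55 and 8.15 at 5-somite and 9, 9.46 and 9.48 at shield in MZdnmt3aa, against 8.64, 8.63 and 8.58 at 5-somite and 6.96, 6.57 and 6.77 at shield in WT (log2 difference -2.83, standard error 0.23, adjusted p = 6.75e-05). Somite genes mespba and mespaa had lower stage changes in MZdnmt3aa than in WT, with mespba at 1.64 in MZdnmt3aa and 2.7 in WT and mespaa at -2.43 in MZdnmt3aa and -1.64 in WT. In dnmt3bb.2 mespba had 2.48, near WT, and mespaa had -2.46, near MZdnmt3aa. The blood stem cell factor runx1 was well above background on 1 of 3 5-somite arrays in MZdnmt3aa and 3 of 3 in WT, and on 0 shield arrays of both. In dnmt3bb.2 the counts for runx1 were those of MZdnmt3aa, 1 of 3 at 5-somite and 0 at shield. The Hox gene hoxc1a was at least 37.5-fold higher at 5-somite in MZdnmt3aa and rose by 4.03 on the log2 scale in WT, and was the 1 Hox gene of 44 called in this difference, which was -0.038 after normexp background correction. For hoxc1a 0 shield arrays were well above background in dnmt3bb.2, as in MZdnmt3aa, against 3 in WT. None of the 25 organizer, 19 oocyte, 34 cell cycle and 23 DNA methylation genes was called in the difference from WT, which with 8.55% of all genes called does not show that their changes were equal.

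The difference from dnmt3bb.2 uses the same MZdnmt3aa arrays and is given beside the first for that reason alone. Of 37303 probes 2387 (6.40%) were called, 1283 higher (3.44%) and 1104 lower (2.96%) in MZdnmt3aa. With 1 probe per gene the count was 896 of 13081 (6.85%), 3.63% higher and 3.22% lower. The gap was larger at shield for 56.7% of the called probes. Again each stage of dnmt3bb.2 has its own scan day, and with the slide as a random block 359 probes were called. The count lay between 1224 and 1427 when any 1 dnmt3bb.2 array or the MZdnmt3aa 5-somite replicate 1 or 2 was left out. The sodium pump gene atp1a3b had 7.92, 7.98 and 8.2 at 5-somite and 6.78, 6.61 and 6.32 at shield in MZdnmt3aa, against 11.75, 11.42 and 11.52 at 5-somite and 4.26, 4.61 and 4.18 at shield in dnmt3bb.2 (log2 difference -5.76, standard error 0.23, adjusted p = 2.26e-06). The dnmt3bb.2 arrays were the highest of the 3 genotypes at 5-somite and the lowest at shield, where none was well above background. Complement gene c3a.1 was at least 230-fold higher at 5-somite in MZdnmt3aa and rose on the log2 scale by 2.96 in WT and by 3.07 in dnmt3bb.2 (log2 difference 5.47, standard error 0.42, adjusted p = 6.6e-05), with 3.16, 4.15 and 3.85 on the shield arrays of MZdnmt3aa, none well above background, and 7.77, 7.37 and 7.44 on those of dnmt3bb.2. The eye field gene rx3, with 0 shield arrays of MZdnmt3aa well above background, was at least 19.5-fold higher at 5-somite in MZdnmt3aa and rose by 2.96 on the log2 scale in dnmt3bb.2 (log2 difference 3.58, standard error 0.35, adjusted p = 0.000265). In WT too 0 shield arrays were well above background for rx3, and its difference from WT, at 0.53, was not called. The dnmt3bb.2 shield arrays, at 6, 5.65 and 6.18, stood apart. For dnmt3bb.2 itself the change was -0.23 in MZdnmt3aa and -1.16 in dnmt3bb.2 (log2 difference 0.93, standard error 0.16, adjusted p = 0.00422).

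**Figure D4:**
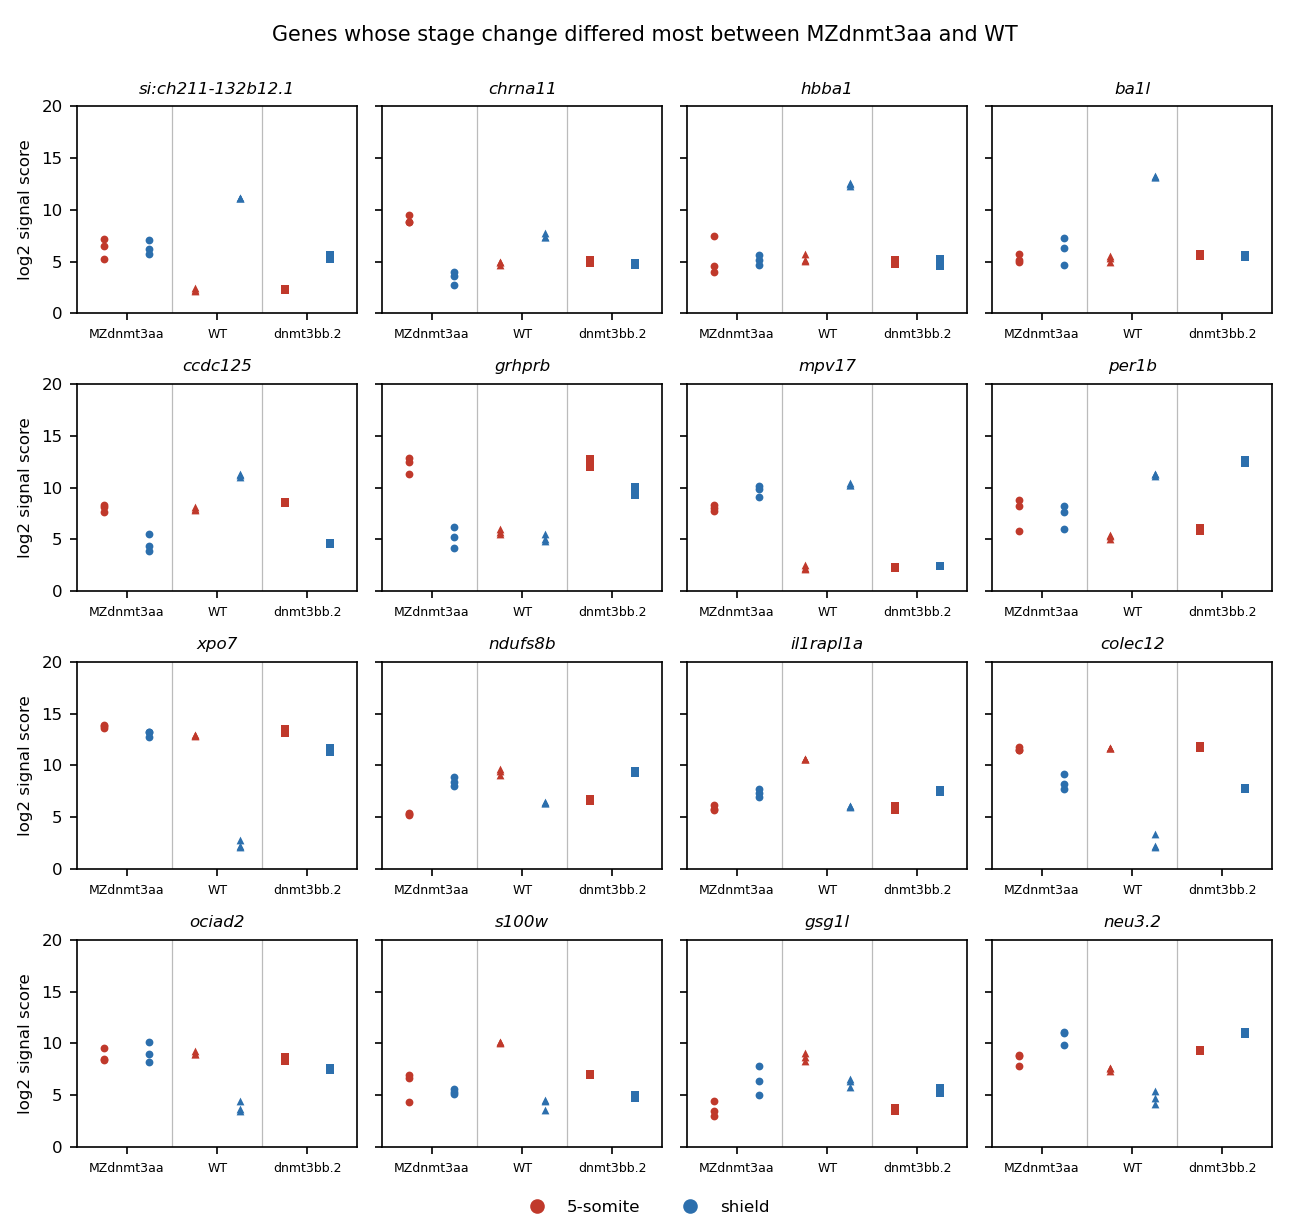
Log2 signal score (y axis) on each array of MZdnmt3aa, WT and dnmt3bb.2 embryos (x axis), 5-somite beside shield, for genes called in a difference of stage changes, 1 panel per gene. For xpo7 and hbba1 the WT shield arrays alone stand apart, whereas for chrna11 the MZdnmt3aa arrays are the highest at 5-somite and the lowest at shield.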

How the data were processed

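The RNA came from pools of 20 zebrafish embryos, and each pool was read on 1 Agilent one-colour (Cy3) array. Per the file headers, the authors extracted background-subtracted signal intensities with Feature Extraction 12.0.3.1. The values the authors deposited are these intensities after global scaling, 1 factor per array that sets the trimmed mean, without the lowest and highest 2%, to 2500. Recomputed values had a ratio of 1 to the deposited ones on all 45 arrays.

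For the present comparisons these values were put on the log2 scale, without spots marked as outliers, and repeated spots gave 1 mean per probe. Of 43603 probes 27894 were given 1 of 14637 symbols, 27276 of them through their accession. Testing required a signal well above background on 1 or more arrays of the fit. The stages were compared with limma 3.58.1 in R 4.3.3 (lmFit and eBayes, Benjamini-Hochberg adjustment, threshold 0.01) on the 6 MZdnmt3aa arrays. The differences from WT and from dnmt3bb.2 were interaction terms, each over 12 arrays. The script was tested on simulated data. Intensities have no read depth, and the number of arrays limits the precision.

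The named genes are the 12 highest and 12 lowest changes, 10 genes switched on and 10 switched off, and the 3 highest and lowest called members of each list. All DNA methyltransferase genes were named too, and for each difference the 8 highest and lowest estimates and every called list member. The 12 highest and 12 lowest came from called probes without overlap of the stages. They were well above background on 3 arrays of the brighter stage and at least 1 of the dimmer. The 8 highest and lowest estimates came from called probes well above background on most arrays of the fit. Members, lists and rule were chosen with earlier results of these data known, and further list members were named after their values were seen. Some members are counted in their lists but not reported here by name. Alternatives changed the scaling, background correction, low values, filter, samples in the fit, slide, replicate block and threshold. Columns of values mapped to no sample numbered 0. No sequence or coordinate is printed, since the array follows an older genome build than the tables used here.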

Additional observations from a re-analysis of the deposited data

Results flagged for a closer look

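The stage change of MZdnmt3aa differed from that of WT for 3121 probes and from that of dnmt3bb.2 for 2387 probes, by limma's test of the interaction term. Each gene below passed that test, and its value is the log2 stage change in MZdnmt3aa minus that in the other genotype. Such a value alone does not show which genotype stands apart. In WT and in dnmt3bb.2 each stage has its own scan day, so stage and scan day cannot be told apart in these genotypes. The part of the scan day in these differences was not tested. A stage of MZdnmt3aa or WT had no array well above background for 13 of the 45 genes named against WT, and a stage of MZdnmt3aa or dnmt3bb.2 for 18 of the 40 named against dnmt3bb.2. For runx1 and cel.1 against WT, and cel.1, pax3a and he1.1 against dnmt3bb.2, this held for the shield arrays of both genotypes, so these differences also hold readings of background.

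Against WT, the highest differences were si:ch211-132b12.1 at 8.82, chrna11 at 8.2, hbba1 at 7.32, ba1l at 7.18, ccdc125 at 6.63, grhprb at 6.42, mpv17 at 6.33 and per1b at 6.33. On other probes of these genes the differences were 7.11 for si:ch211-132b12.1, 6.98 for ba1l, 6.36 for ccdc125, 3.11 and 3.88 for grhprb, 0.93 for mpv17 and 1.59 for per1b. The lowest were xpo7 at -9.85, ndufs8b at -6.13, il1rapl1a at -6.06, colec12 at -5.88, ociad2 at -5.52, s100w at -5.29, gsg1l at -5.27 and neu3.2 at -4.97. Other probes had -0.95 for xpo7, -3.79 for ndufs8b, -5.56 for il1rapl1a, 0.34 for ociad2 and values from -3.31 to -0.62 for colec12. The leading falls of the stage comparison added me1 at -4.93 and ccnp at -2.13.

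Among list members that differed from WT, the early regulators and segmentation genes had lower stage changes in MZdnmt3aa, which does not mean lower levels. They were id3 at -0.72, mycn at -0.60, her3 at -1.66, mespaa at -0.79, mespba at -1.06 and efnb2a at -0.64. Titin and neural genes included ttn.2 at 2.35, her4.1 at -1.94, pax2a at 2.71 and stmn1b at -2.83, and crest and placode genes dlx2a at -2.14 and eya1 at -2.01. The stage change was lower for 3 of 28 blood and vessel genes, tek at -1.003, runx1 at -2.59 and vegfaa at -1.87. It was also lower for 4 of 33 epidermal genes, krt15 at -1.67, icn at -3.57, icn2 at -3.52 and s100a10b at -2.98. Over all genes 4.97% were called lower in this difference. Yolk genes went both ways, with apobb.1 at 2.58, slc26a1 at 0.94, slc40a1 at -2.14, rbp4 at -2.95 and selenop at 3.49. The rest were hoxc1a at 2.63, fzd10 at -1.002 and cel.1 at 2.21.

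Against dnmt3bb.2, the highest differences were per1b at 6.88, eva1ba at 6.73, slc37a4a at 6.34, csrp3 at 5.69, c3a.1 at 5.47, hao2 at 4.98, kcnq1.1 at 4.89 and slc1a3a at 4.81. The lowest were atp1a3b at -5.76, creb3l3a at -5.09, fam78aa at -5.08, thbs4b at -4.86, kctd12b at -4.81, flot1a at -4.78, marveld1 at -4.46 and rbp4 at -4.44. Each value rests on 1 probe, and values on other probes are not given here. For per1b the difference from WT was much smaller on another probe, as given above. Among list members, early and segmentation genes were sox19b at -0.82, her3 at -1.36 and mespba at -0.84. Muscle, neural and crest genes were unc45b at 1.08, ascl1b at -1.77, rx3 at 3.58, nkx2.1 at 1.05, stmn1b at -2.90 and pax3a at 1.84. Heart, midline and hatching gland genes were tbx20 at -2.80, col8a1a at 1.54, he1.1 at 1.60 and plod1a at -1.14. The epidermal genes named had higher stage changes in MZdnmt3aa, with cldnf at 1.33, cldnb at 0.90 and foxi3a at 1.66. Yolk genes were slc26a1 at 1.03, slc40a1 at -3.28 and serpina1l at 2.38. The rest were hoxa4a at 1.54, dnmt3bb.2 at 0.93, cyp26c1 at 1.79, raraa at -0.76 and cel.1 at 2.35.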

How the results depend on the processing

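The count of 15574 called probes in the stage comparison was 24147 with all 45 arrays in the fit, 9671 without 5-somite replicate 1, 10254 without 5-somite replicate 2 and between 11822 and 13797 without any other array. It stayed between 12982 and 21462 under the other alternatives apart from the replicate block, and the split of higher against lower calls moved with the scaling as given above. The difference from WT, 3121 probes, was 4781 with a floor of 32, 6956 with all 45 arrays, 1451 with the slide as a random block and 7330 at an adjusted p of 0.05. With 1 array left out it lay between 1586, without WT 5-somite replicate 2, and 4242, without MZdnmt3aa shield replicate 3. It was between 1586 and 1869 without any 1 of the WT arrays, and it was lower too without MZdnmt3aa 5-somite replicate 1 (1894) or 2 (1916). The difference from dnmt3bb.2, 2387 probes, was 3784 with the floor, 6586 with all 45 arrays, 359 with the random block and 6313 at 0.05. With 1 array left out it lay between 1224, without dnmt3bb.2 5-somite replicate 3, and 3172, without MZdnmt3aa shield replicate 1. It was between 1224 and 1332 without any 1 of the dnmt3bb.2 arrays, 1320 without MZdnmt3aa 5-somite replicate 1 and 1427 without replicate 2. The cause of these shifts was not tested.

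Same-numbered replicates of the 2 stages had correlated deviations of 0.11, 0.0067 and 0.19. The 5-somite replicate 2 correlated best with shield replicate 1, at 0.14, and the other 5-somite arrays correlated best with their own number. With so few arrays per stage these values cannot decide whether same-numbered samples belong together. With the replicate block 11723 probes were called in the stage comparison, 1969 in the difference from WT and 1610 in that from dnmt3bb.2.

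Of 198 named and called genes of the stage comparison, 151 kept their call and direction in every alternative and 47 lost the call in at least 1. Of 45 named differences from WT 22 were kept, and of 40 from dnmt3bb.2 11 were kept, where the slide as a random block lost 24. The normexp setting joins background correction, an offset of 50 and 75th percentile scaling. With it the sign turned for tet3 (-0.096), cel.1 (-0.22), lyz (-0.051), dnmt3bb.3 (-0.0044), hoxd13a (-0.15), mylpfa (-0.15), myl1 (-0.24), hoxb13a (-0.27), hoxc12b (-0.34) and runx1 (-0.37). It also turned for the differences of hoxc1a (-0.038) and cel.1 (-0.15) from WT and col8a1a (-0.13) from dnmt3bb.2. With the 75th percentile, hoxb13a was -0.099, hoxc12b -0.055 and runx1 -0.043, and with quantile normalization they were -0.51, -0.59 and -0.57. On the slide with both stages, and with the slide as a fixed block, dnmt3bb.3 was -0.010, hoxb13a -0.19 and hoxc6a -0.47. With 1 array left out, dnmt3bb.3 ranged from -0.20 to 0.36, 1 dnmt1 probe from -0.86 to 0.56, hoxb13a from -0.067 to 0.16, hoxc12b from -0.20 to 0.40 and hoxc6a from -0.40 to 0.63. Of the stage changes that turned sign in at least 1 alternative, only those of tet3, cel.1 and lyz were called in the comparison itself. A probe not well above background at a stage gives only a lower bound of its fold.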

Other observations

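Gene families were also examined by symbol, 36 in all, chosen after the data were seen. Several share genes with the lists, as the zona pellucida and claudin families do with the oocyte and epidermis lists. Their counts are to be read beside the 27.1% of genes called higher and the 17.9% called lower. Of 81 cytosolic ribosomal proteins 77 were higher and 0 lower at 5-somite in MZdnmt3aa, but 41 were higher without 5-somite replicate 1 and 51 without 5-somite replicate 2. Their median log2 fold change was 1.1 in MZdnmt3aa, 1.11 in WT and 1.2 in dnmt3bb.2. Of 73 mitochondrial ribosomal proteins 33 were higher and 0 lower, at a median of 0.82, and the higher count was 20 without 5-somite replicate 1. Genes with symbols that begin with nduf, linked to respiratory complex I and not all subunits, had 27 of 44 higher and 1 lower. Their median was 1.04, and 17 were higher without 5-somite replicate 1. Genes with symbols from psma to psmg, linked to the proteasome and not all subunits, had 30 of 53 higher and 2 lower, with a median of 0.78. Of these 13 were higher without 5-somite replicate 1 or 2, 19 without shield replicate 1 and 17 without shield replicate 2.

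Of 21 zona pellucida genes, which encode the egg coat, 16 were lower and 0 higher, with a median of -1.88 in MZdnmt3aa, -1.33 in WT and -1.79 in dnmt3bb.2. The lower count was 6 without 5-somite replicate 1 or 2 or shield replicate 2, and 7 without shield replicate 3. Of 30 protocadherins, adhesion proteins of neurons, 20 were higher and 1 lower, with a median of 2.94 in MZdnmt3aa, 4.2 in WT and 3.22 in dnmt3bb.2. After normexp background correction that median was 0.64 in MZdnmt3aa. Of 17 complement genes 10 were higher and 0 lower, with a median of 3.92, which was 0.62 after normexp background correction. Claudins, with 10 of 32 higher and 6 lower, and integrins, with 5 of 17 higher and 4 lower, lay near the shares of all genes. Potassium channels, with 6 of 39 higher and 6 lower, lay below both shares.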
